A study of Mus musculus with 2 samples.

Results

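The 69 axon guidance ligand and receptor genes described here are the protein-coding genes of the GENCODE M21 mouse annotation whose symbols name a semaphorin of classes 3 to 7, a plexin, a neuropilin, an ephrin, an Eph receptor, a Slit, a Robo, a netrin of the Ntn1 to Ntn5 series, an Unc5 receptor or Dcc. They are 69 of 21938 protein-coding genes on 21 chromosomes, 35 of them ligands and 34 receptors. They were picked by symbol alone and not by a measured value, though earlier results of these data were known when the rule was set. They were followed by DNase-seq in right cerebral cortex taken at the age of 2 months from males of the strain B6CASTF1/J, with 1 library from animal 5 (replicate 1) and 1 from animal 6 (replicate 2). B6CASTF1/J mice are the first-generation offspring of C57BL/6J and CAST/EiJ, so each autosomal site has a copy from each strain, while males have a single X. The libraries carry 1 donor record in common and are told apart as animals by these numbers alone, so the spread between them may be partly technical. There was 1 tissue, genotype, sex and age, so no groups were compared and no test was run.

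DNase-seq cuts nuclei with DNase I and sequences the cut ends, so that DNA not covered by nucleosomes is seen as peaks of cutting, and short protected stretches inside a peak, where a bound protein shields the DNA, are called footprints. Axon guidance genes encode cues and their receptors: semaphorins bind plexins, often with a neuropilin, ephrins bind Eph receptors on neighbouring cells, Slits bind Robos, and netrins bind Dcc and the Unc5 receptors. In the developing cortex these pairs steer growing axons and migrating neurons, and in the adult cortex several of them act at synapses, in vessels and in glia. The tissue was a whole piece of cortex, so that sites open in few cells and sites weakly open in many cells cannot be told apart.

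The smaller, stricter of the 2 deposited peak sets held 91818 peaks in replicate 1 and 75245 in replicate 2, and no source used here gives the reads behind each library. A gene is called open where at least 1 strict peak fell inside the 1000 bp on either side of a transcript start. Among marker genes, 6 of 6 pan-neuronal and 5 of 8 excitatory cortical neuron markers were open in both libraries, against 58.7% of all coding genes. The other 3 of the 8 (Tbr1, Slc17a7 and Fezf2) were open in replicate 1 only. Around Tbr1 and Fezf2, gene body plus 20000 bp on each side, replicate 1 had 15 and 11 peaks and replicate 2 had 0. Markers of astrocytes were open in both libraries for 4 of 6, oligodendrocytes for 2 of 6, inhibitory neurons for 2 of 7, endothelium for 1 of 5 and microglia for 0 of 6. Of markers of other brain parts, 3 of 4 for striatum, 1 of 3 for thalamus and hypothalamus and 0 of 4 for cerebellum and hindbrain were open in both. With lists this short, counts near the share of all coding genes do not tell one tissue from another.

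The sequences of 6 promoter peaks that carry the results below are shown here, 5 of them from genes whose peaks were tall in both libraries and the sixth, Plxnc1, from a start deep inside its gene. Coordinates are on GRCm38 (mm10), each sequence is the C57BL/6J reference read 5′ to 3′ on the strand of its gene, and bases within footprints of both libraries are in capitals. The CAST/EiJ copy of these animals may differ from the letters shown.
Ephb3, chr16:21204418-21204717, plus strand: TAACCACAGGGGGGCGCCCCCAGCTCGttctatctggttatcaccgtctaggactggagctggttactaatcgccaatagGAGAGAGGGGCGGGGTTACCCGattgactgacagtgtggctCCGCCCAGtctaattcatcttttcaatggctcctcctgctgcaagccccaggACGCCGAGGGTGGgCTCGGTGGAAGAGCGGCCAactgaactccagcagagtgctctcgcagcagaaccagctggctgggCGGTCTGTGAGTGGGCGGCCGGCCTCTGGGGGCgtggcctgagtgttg
Efnb2, chr8:8661243-8661440, minus strand: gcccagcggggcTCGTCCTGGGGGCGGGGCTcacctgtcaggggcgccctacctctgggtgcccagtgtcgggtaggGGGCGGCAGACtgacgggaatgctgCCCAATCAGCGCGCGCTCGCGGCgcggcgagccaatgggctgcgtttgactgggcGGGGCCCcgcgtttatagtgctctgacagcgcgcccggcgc
Robo3, chr9:37430681-37430860, minus strand: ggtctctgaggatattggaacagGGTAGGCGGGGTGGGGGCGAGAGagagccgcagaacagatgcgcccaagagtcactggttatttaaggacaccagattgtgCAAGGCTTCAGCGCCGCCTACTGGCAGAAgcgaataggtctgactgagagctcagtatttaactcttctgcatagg
Sema4b, chr7:80187041-80187260, plus strand: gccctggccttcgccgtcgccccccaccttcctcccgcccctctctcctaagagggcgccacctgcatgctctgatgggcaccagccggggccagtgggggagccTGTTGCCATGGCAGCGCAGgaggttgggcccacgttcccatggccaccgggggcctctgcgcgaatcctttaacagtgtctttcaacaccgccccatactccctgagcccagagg
Epha7, chr4:28812841-28813130, plus strand: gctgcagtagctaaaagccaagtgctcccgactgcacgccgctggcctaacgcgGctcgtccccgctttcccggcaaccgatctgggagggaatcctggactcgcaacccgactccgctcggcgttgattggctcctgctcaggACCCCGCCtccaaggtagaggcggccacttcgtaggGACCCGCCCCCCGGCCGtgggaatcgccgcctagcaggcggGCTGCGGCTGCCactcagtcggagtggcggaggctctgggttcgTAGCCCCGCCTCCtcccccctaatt
Plxnc1, chr10:94829461-94829680, minus strand: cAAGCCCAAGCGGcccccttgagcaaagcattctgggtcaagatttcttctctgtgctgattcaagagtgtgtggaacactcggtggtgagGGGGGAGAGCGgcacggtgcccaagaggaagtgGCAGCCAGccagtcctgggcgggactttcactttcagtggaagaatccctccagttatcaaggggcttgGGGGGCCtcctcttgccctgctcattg
In the Ephb3 sequence 122 bases lay in footprints of both libraries, and the first capital run held a match to the CTCF consensus. The Efnb2 sequence held GGGCGG, the SP/KLF motif, and CCAAT, both inside capitals. The capitals of Sema4b spanned the RFX motif, and the second long run of Robo3 held a match to a shorter, strict CTCF consensus. In Plxnc1, 38 bases were in footprints of both libraries and no CTCF match was found.

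Guidance gene promoters were open more often than those of coding genes in general, and their peaks were lower. A promoter peak was found for 61 of 69 guidance genes (88.4%) in replicate 1 and for 56 (81.2%) in replicate 2, against 63.4% and 59.3% of all protein-coding genes. In both libraries 56 of 69 were open (81.2%), against 58.7% of all coding genes. Another 5 (7.25%) were open in 1 library only, against 5.29%, and 8 (11.6%) in neither, against 36%. At the looser level of single bases that pass a false discovery rate of 0.05, 65 of 69 guidance genes (94.2%) in replicate 1 and 60 (87%) in replicate 2 had a listed base within 1000 bp of a start, against 69.2% and 66.1% of coding genes. Guidance genes have more annotated starts (median 4, against 3), which widens the stretch searched. With the 5′ end of each gene as its only start, 51 of 69 were open in both libraries, a larger share than the 53.8% of all coding genes. The shares were also higher within each class of gene length, though by little from 50 to 200 kb in replicate 2. Of the 35 guidance genes under 50 kb, 80% and 71.4% were open, against 57.1% and 53.3%. Of the 16 guidance genes of 50 to 200 kb, 15 (93.8%) and 13 (81.2%) were open, against 83.3% and 77.9%. In replicate 2 this last difference is smaller than a single gene.

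Among genes open in both libraries, the tallest promoter peak of the 56 guidance genes had a median height of 1.95 in replicate 1, with a middle 50% of 1.43 to 2.73, against 3.25 (1.93 to 4.75) for the 12882 coding genes. In replicate 2 the median was 1.32 (1.06 to 2.05) for guidance genes, against 2.18 (1.28 to 3.2). Under 50 kb of gene length the medians over genes with a promoter peak were 2.05 and 1.48, against 3.27 and 2.33, and over 200 kb they were 1.78 and 1.21, against 2.01 and 1.43, so the gap was widest for short genes. Heights are the authors' signal values, whose scale is not stated, and they were higher in replicate 1 by a median ratio of 1.46 for guidance genes and 1.49 for all coding genes, so they are compared within a library. Of the 56, 43 lay below the median of all coding genes with a promoter peak in that library (3.02 and 2.17) in both libraries. That is a larger share than the 44.1% of coding genes open in both (5679 of 12882). A total of 17 of the 56 lay in the lowest 25% in both, also a larger share than the 18.3% of coding genes open in both (2362 of 12882). Only Ephb3, 1 of the 56, was in the highest 25% in both libraries, against 22.4% of coding genes, and 7 more were above the median in both: Efnb2, Robo3, Sema4b, Epha7, Plxna2, Sema5a and Sema4c. With genes without a peak counted as 0, the medians were 1.8 in replicate 1 and 1.13 in replicate 2 for guidance genes, and 1.48 and 0.96 for all coding genes.

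**Figure D1:**
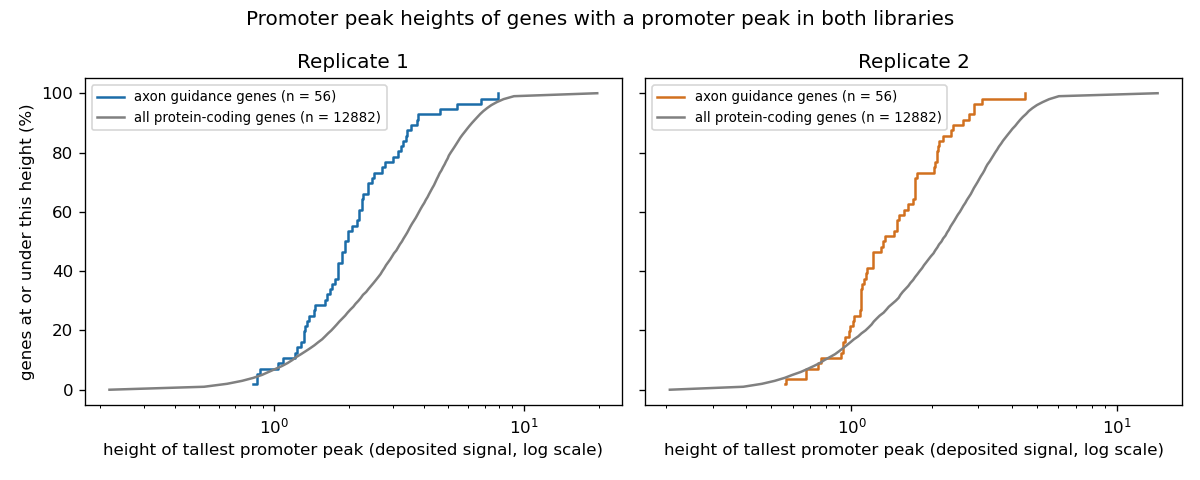
Cumulative share of genes (%) against the height of the tallest promoter peak (deposited signal, log scale) in each library, for the 56 axon guidance genes (coloured steps) and the 12882 protein-coding genes (grey) open in both libraries. The guidance curve lies to the left over most of its range, with medians of 1.95 and 1.32 against 3.25 and 2.18.

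Guidance genes open in both libraries had more promoter peaks on average, over a longer stretch searched (median 6064 bp within 1000 bp of a start, against 4314 bp). They had a mean of 2.96 promoter peaks per gene in replicate 1 and 2.36 in replicate 2, against 2.21 and 1.9 for coding genes open in both, with medians of 3 and 2, against 2 and 2. The bases near their starts that passed the false discovery rate had a median of 1766 and 1321 per gene, against 1352 and 1111. As a share of all bases within 1000 bp of their starts this was 29.5% and 20.4%, against 29% and 23.2%. A footprint lay in 83.1% of the 177 promoter peaks of guidance genes in replicate 1 and in 81.8% of the 132 in replicate 2, against 81.8% and 79.9% for promoter peaks of all coding genes. Of those peaks, 63.3% in replicate 1 and 92.4% in replicate 2 overlapped a peak of the other library, against 71.6% and 89.2%.

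A further difference was in neighbours. The tallest promoter peak of a guidance gene lay within 1000 bp of a start of another coding gene in 0 of 61 cases in replicate 1 and 0 of 56 in replicate 2, against 19.4% and 20.3% of coding genes with a promoter peak. By RefSeq starts the counts were 2 of 61 and 2 of 56, from Epha10, beside Maneal, and Epha5, beside Gm42163, against 17.3% and 18.2%.

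**Figure D2:**
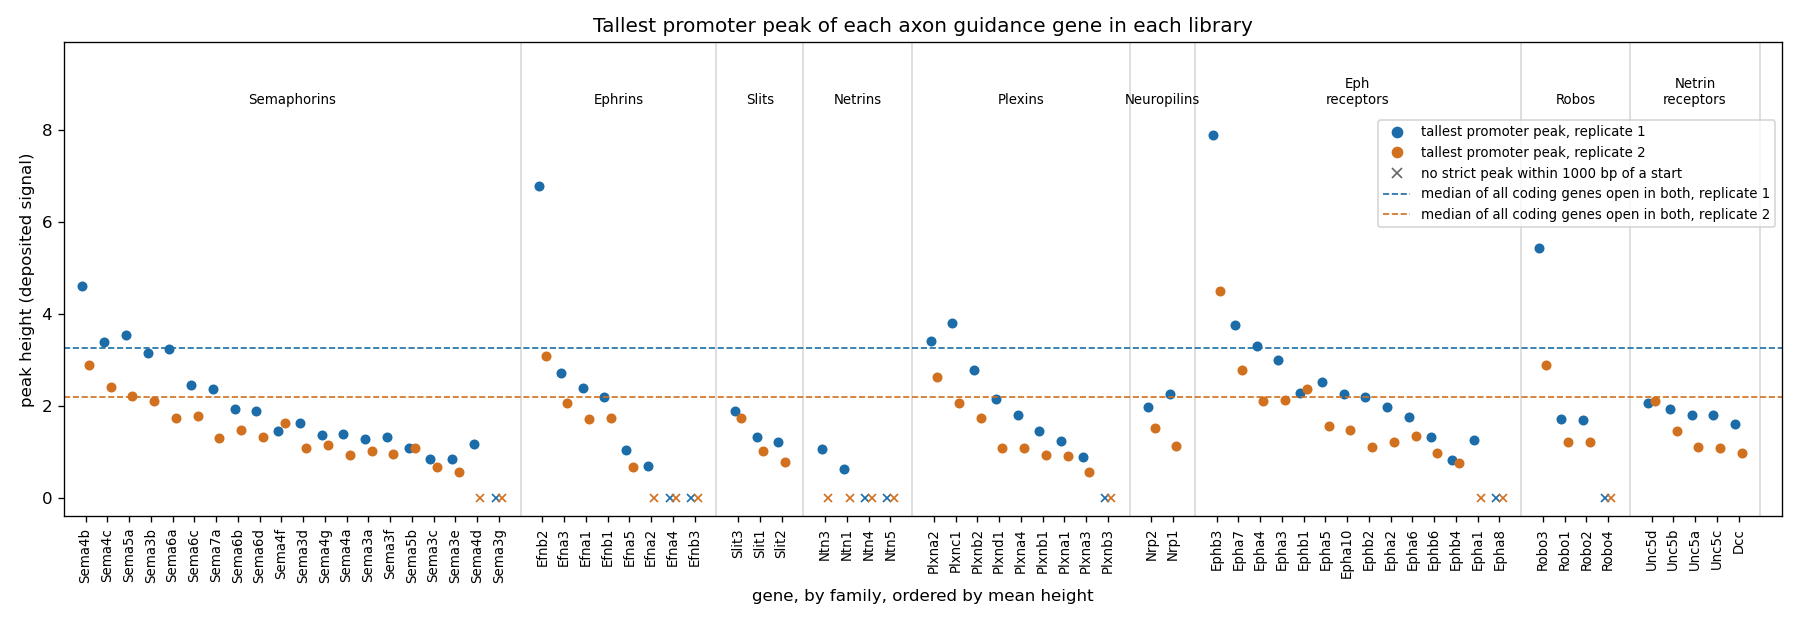
Height of the tallest promoter peak (deposited signal) of each of the 69 axon guidance genes in replicate 1 (blue) and replicate 2 (orange), by family and ordered by mean height, with crosses for no strict peak within 1000 bp of a start and dashed lines for the medians of all coding genes open in both libraries, 3.25 and 2.18. Most points lie under the dashed lines, Ephb3 is the highest, and crosses are found in every family other than Slits, neuropilins and netrin receptors.

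Semaphorins, secreted or membrane-bound cues that mostly repel axons, were open in both libraries for 18 of 20 genes. Sema4b, a membrane-bound class 4 semaphorin, had the tallest promoter peak of the family, with heights of 4.61 in replicate 1 and 2.89 in replicate 2. Sema4c, of the same class, had 3.39 and 2.4. Sema5a, which carries thrombospondin repeats beside its semaphorin domain and can both attract and repel, had 3.53 and 2.21. The centre of that Sema5a peak lay 1067 and 1077 bp from the nearest start, and the tallest peak within 1000 bp of the 5′ end had 0.826 and 0.499. By their tallest promoter peak, all 3 genes were above the medians of open coding genes in both libraries. The other 15 open in both spanned 0.851 to 3.23 in replicate 1 and 0.568 to 2.1 in replicate 2. The secreted class 3 semaphorins, which act through neuropilins and class A plexins, were open in both for 6 of 7 genes and had low peaks, with medians of 1.3 and 0.983, while 12 of 13 genes of classes 4 to 7 were open in both, with medians of 1.93 and 1.56. Sema3b, whose tallest peak reached 3.15 and 2.1, stood apart from the other class 3 genes, the next being Sema3d at 1.63 and 1.08. That Sema3b peak lay at a start 7.06 kb from the 5′ end, which had no peak in either library. Sema3c and Sema3e were the lowest, both at 0.851 in replicate 1 and at 0.676 and 0.568 in replicate 2. Sema3g, known from vascular endothelium, had no promoter peak and no listed base near a start in either library. Sema4d, a ligand of Plxnb1, had a peak of 1.17 in replicate 1 only, but 429 listed bases near its starts in replicate 2.

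Ephrins are membrane-anchored ligands of Eph receptors, and 5 of 8 were open in both libraries. Efnb2, a transmembrane ephrin that also marks arterial endothelium, had the second tallest promoter peak of all 69 genes in both libraries, at 6.78 in replicate 1 and 3.09 in replicate 2. Efna3 followed with 2.72 and 2.05 and Efna1 with 2.38 and 1.71. Efnb1, on the X chromosome and thus at a single copy, had 2.18 and 1.73. Efna5, which helps set up topographic maps, was low at 1.04 and 0.676, and its tallest peak held 19 footprints over 2020 bp in replicate 1 and 3 over 284 bp in replicate 2. Efna2 had a peak of 0.695 in replicate 1 only. Efna4 had no listed base near a start in either library, and Efnb3, a midline cue for corticospinal axons, had 1 listed base in replicate 1 at a false discovery rate of 0.0479 and none in replicate 2.

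Slits, the secreted repellents read by Robos, were open in both libraries for 3 of 3 genes, at modest heights. Slit3 had 1.88 and 1.73, Slit1 had 1.32 and 1.01, and Slit2 had 1.21 and 0.768. Slit2 nevertheless had 8 promoter peaks in replicate 1 and 7 in replicate 2, and 3853 and 2852 listed bases near its starts. It has 18 annotated starts, which widen the stretch searched.

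Netrins were the family with the least promoter access, with 0 of 4 open in both libraries. Ntn1, the classic commissural attractant, had 4 low promoter peaks in replicate 1, the tallest at 0.632, and 1828 listed bases near its starts, but no peak and no listed base there in replicate 2. Ntn3 had a peak of 1.06 in replicate 1 and 81 listed bases in replicate 2. Ntn4, a basement membrane netrin, had no promoter peak, with 1132 listed bases in replicate 1 and 133 in replicate 2. Ntn5 had none either, with 134 and 50 listed bases.

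Among receptors, 30 of 34 genes were open in both libraries, against 26 of 35 ligands and 58.7% of all coding genes. In replicate 1 alone the shares were 91.2% for receptors and 85.7% for ligands. Receptor genes were longer, with a median of 92.2 kb, against 29 kb for ligands, and the part of length was not tested. Plexins, the semaphorin receptors, were open in both for 8 of 9. Plxna2, a class A plexin, had heights of 3.41 and 2.63, Plxnc1, the receptor of Sema7a, had 3.79 and 2.07, and Plxnb2 had 2.78 and 1.74. Plxna2 was above the medians of open coding genes in both libraries, and Plxnc1 in replicate 1 only. Plxna3, on the X chromosome, was the lowest of the open plexins at 0.882 and 0.561. Plxnb3, also on the X chromosome, had no listed base near a start in either library. Both neuropilins, the ligand-binding partners of plexins for class 3 semaphorins and receptors for VEGF, were open, with 2.26 and 1.13 for Nrp1 and 1.97 and 1.51 for Nrp2.

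Eph receptors, the receptor tyrosine kinases that bind ephrins, were open in both libraries for 12 of 14 genes. Ephb3 had the tallest promoter peak of all 69 genes in both libraries, with 7.89 in replicate 1 and 4.5 in replicate 2, at the 97.4 and 92.7 percentiles of coding genes with a promoter peak. Epha7 had 3.75 and 2.77, and its starts were flanked by 5 and 2 promoter peaks. Epha3 had 3.0 and 2.13, and Epha4, which restrains corticospinal axons at the midline, had 3.29 and 2.11. Ephb1 and 3 other guidance genes had a higher peak in replicate 2 than in replicate 1, for Ephb1 2.28 in replicate 1 and 2.36 in replicate 2. The EphB group was open in both for 5 of 5 genes and the EphA group for 7 of 9. Epha1, a receptor best known from epithelia, had a peak of 1.26 in replicate 1 only, and Epha8 had none in either, with 160 listed bases in replicate 1. Ephb4, the venous partner of Efnb2, was open but low, at 0.826 and 0.745.

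Robos, the Slit receptors, were open in both libraries for 3 of 4 genes. Robo3, which lets commissural axons cross the midline, had 5.43 and 2.88, Robo1 had 1.71 and 1.21, and Robo2 had 1.68 and 1.21. Robo4, an endothelial member of the family, had no promoter peak and no listed base near a start in either library. All 5 netrin receptors were open in both libraries, with heights of 1.6 to 2.05 for replicate 1 and 0.975 to 2.1 for replicate 2. Unc5d, a marker of migrating upper-layer neurons, had 2.05 and 2.1, Unc5b had 1.92 and 1.45, and Dcc, the attractive netrin receptor, had 1.6 and 0.975. Set side by side, 5 of 5 netrin receptors and 0 of 4 netrins were open in both libraries, against 58.7% of all coding genes. In replicate 1 alone, 2 of the 4 netrins were open. Netrin receptor genes were longer, with a median of 370 kb, against 58.5 kb for netrins, and the part of length was not tested.

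For some guidance genes the tallest promoter peak was not at the 5′ end. The 69 genes have 206 clusters of starts, taken within 1000 bp of each other, of which 68 (33%) were open in both libraries, against 31% for all coding genes. Of the 52 genes with 2 or more clusters, 12 (23.1%) had 2 or more open, against 14.8%. For 9 of the 56 genes open in both, the tallest peak sat at a start over 2000 bp from the 5′ end in both libraries (16.1%), against 10.2% of coding genes open in both. Plxnc1 had its peak of 3.79 and 2.07 at a start 115 kb inside the gene, while its 5′ end had 1.41 and 0.829. Robo3 had its peak 3.11 kb from the 5′ end, which had 0.876 in replicate 1 and none in replicate 2. Robo1 had its tallest peak 355 kb inside, at the start of a shorter transcript, with 0.889 and 0.783 at the 5′ end. Plxnb2 (10.1 kb inside) and Sema6d (521 kb inside in replicate 1) kept lower peaks at their 5′ ends in both libraries. Sema3a (274 kb), Sema3b (7.06 kb) and Sema4a (2.15 kb in replicate 1 and 20 kb in replicate 2) had none at the 5′ end in either. Slit3 had its tallest promoter peak 56.6 kb inside, with no peak at the 5′ end in replicate 1 and one of 0.637 in replicate 2.

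The promoter table of RefSeq on the same build, with 250 bases before and 50 after each start, held 75 promoters of 59 of the 69 genes. Of these, 45 (60%) overlapped a peak in both libraries, against 48% of 21263 promoters of coding genes. Promoters of guidance genes had a median GC content of 64.3%, against 56.3%, and a median ratio of observed to expected CpG of 0.659, against 0.567. Open guidance promoters were less rich in CpG than open promoters in general, at 0.685 (45 promoters) against 0.799 (10208 promoters), and a ratio of 0.6 or more was met by 68.9% against 80.2%. Closed guidance promoters went the other way, at 0.308 (22 promoters) against 0.219 (9707 promoters). Among genes closed in both libraries, Epha8 and Ntn4 had ratios of 1.06 and 0.839, and Efna4 and Sema3g had 0.476 and 0.31. Robo4, Ntn5 and Plxnb3, also closed, had 0.106, 0.132 and 0.133.

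Short motifs were searched on both strands of the same 300-base windows. The ETS motif CCGGAAG was in 1 of 45 open guidance promoters (2.22%), against 20.3% of open coding promoters. The NRF1 motif was in 0 of 45, against 2.56%, and CCAAT in 31.1%, against 40.8%. The SP/KLF motif GGGCGG was in 75.6%, against 68.7%. TATAAA was in 4.44%, against 5.82%, GCGTGGGCG (EGR) in 4.44%, against 1.37%, TGACGTCA (CRE) in 2.22%, against 3.98%, and a strict CTCF consensus in 2.22%, against 3.07%. None of the 45 open windows held TGANTCA (AP-1), CAGATGG (an E-box of NeuroD type), TTCAGCACC (a part of the REST site), the RFX motif or the NFI motif, which were in 3.9%, 3.2%, 0.441%, 0.745% and 0.0196% of open coding promoters. The RFX motif in the Sema4b peak and the AP-1 motif in the Plxnc1 peak shown above lie outside these windows. With 45 promoters, 1 promoter is 2.22%, so shares that differ by a few percent differ by 1 to 3 promoters.

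Beyond the promoters, strict peaks were counted in each gene body plus 20000 bp on each side. All 69 guidance genes had at least 1 such peak in 1 or both libraries, against 14.5% of coding genes with none in either. The median was 8 in replicate 1 (range 1 to 32) and 7 in replicate 2 (0 to 25), against 4 and 3 for all coding genes. At least 10 peaks in both libraries were found for 19 guidance genes (27.5%), against 6.1%. Guidance genes were also longer, with a median length of 46.3 kb, against 17.4 kb, so the counts are given by class of length too. Under 50 kb, the 35 guidance genes had medians of 7 and 4, against 3 and 3. Between 50 and 200 kb, the 16 had 10.5 and 8, against 6 and 5. Over 200 kb, the 18 had 14.5 and 13.5, against 13 and 11. All 18 were open in both libraries, against 853 of 998 coding genes of that length. By library, 91.8% of those coding genes were open in replicate 1 and 86% in replicate 2.

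**Figure D3:**
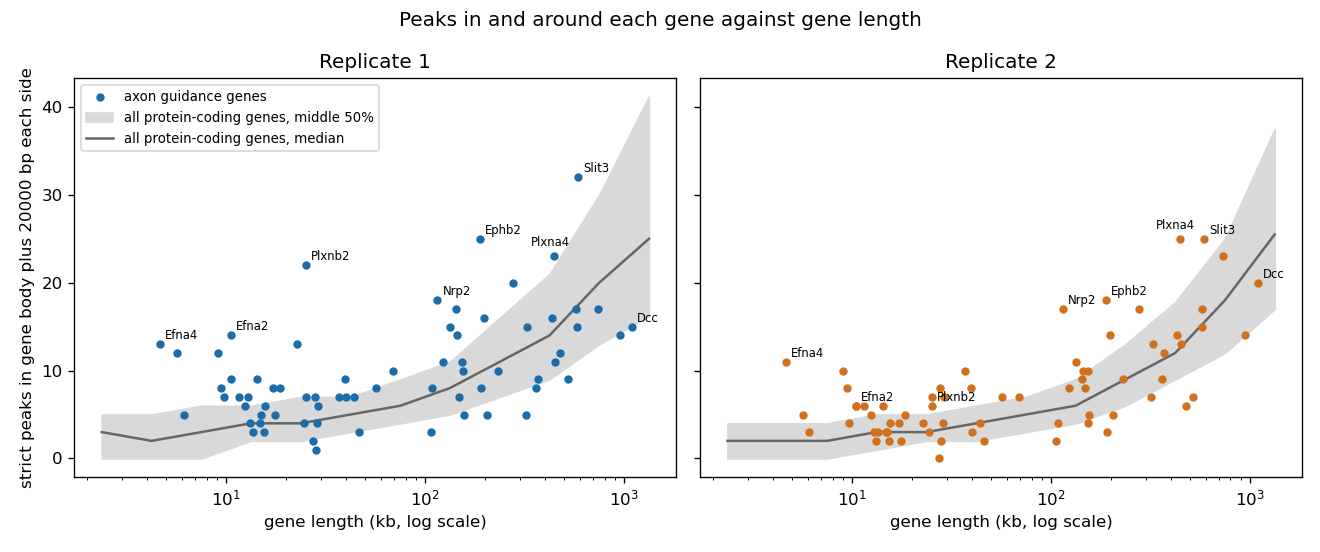
Strict peaks in each gene body plus 20000 bp on each side against gene length (kb, log scale) in each library, for the 69 axon guidance genes (points) and all protein-coding genes (line, median, and band, middle 50%). Short guidance genes such as Efna4 and Efna2 lie above the band in replicate 1, and Slit3 (32 and 25 peaks) is the highest long gene in replicate 1.

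Per length of DNA the order depended on how genes were weighted. Taken gene by gene, guidance genes had a median of 7.3 peaks per 100 kb in replicate 1 and 5.17 in replicate 2, against 5.62 and 4.56. Under 50 kb of gene length the medians were 10.8 and 7.19, against 6.22 and 4.9, and from 50 to 200 kb 6.71 and 5.03, against 4.99 and 4.13. Over 200 kb guidance genes were sparser, at 2.28 and 2.7, against 3.34 and 2.92. Pooled over all bases, where long genes weigh most, the windows merged to 66 stretches of 14.5 Mb, with 678 peaks in replicate 1 and 546 in replicate 2, or 4.67 and 3.76 per 100 kb, against 4.94 and 3.91 in the windows of all coding genes. The pooled density was thus slightly lower for guidance genes in each library, with means over the libraries of 4.21 ± 0.643 per 100 kb (SD, n = 2), against 4.43 ± 0.724. Peaks over 1000 bp from every coding start, called distal, came to 2.92 and 2.42 per 100 kb, against 3 and 2.36.

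By the lower of their ranks in the 2 libraries, the 8 genes with the most peaks were all over 100 kb long. In replicate 1 alone the short Plxnb2 (25.2 kb) ranked among them, with 22 peaks, but it had 6 in replicate 2. Slit3 (587 kb) had 32 peaks in replicate 1 and 25 in replicate 2, of which 30 and 23 were distal and 17 distal ones were shared. Plxna4 (444 kb), a class A plexin, had 23 and 25, Efna5 (277 kb) had 20 and 17, and Robo1 (738 kb) had 17 and 23. Unc5d had 17 and 15 and Ephb1 had 16 and 14. Ephb2 (188 kb) and Nrp2 (115 kb) were both long in peaks and dense, with 25 and 18 peaks, or 10.9 and 7.88 per 100 kb, around Ephb2, and 18 and 17 peaks, or 11.6 and 10.9 per 100 kb, around Nrp2. Dcc, at 1097 kb the longest of the 69, had 15 and 20. Ranked by their lower place in the 2 libraries, the densest windows with at least 3 peaks in each were those of short ephrin and netrin genes, Efna4 (29.1 and 24.6 per 100 kb), Efna2 (27.7 and 11.9), Efna3 (24.5 and 20.4), Ntn5 (17.8 and 11.9) and Efna1 (16.2 and 16.2). In replicate 1 alone Plxnb2 was denser, at 33.7. Of the 13 and 11 peaks around Efna4, 4 and 3 were over 1000 bp from every coding start, as were 8 and 2 of the 14 and 6 around Efna2, and the rest lay near starts of this or another coding gene. The windows of Efna1, Efna3 and Efna4 on chromosome 3 overlap, as do those of Robo3 and Robo4 on chromosome 9, so their counts share peaks.

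**Figure D4:**
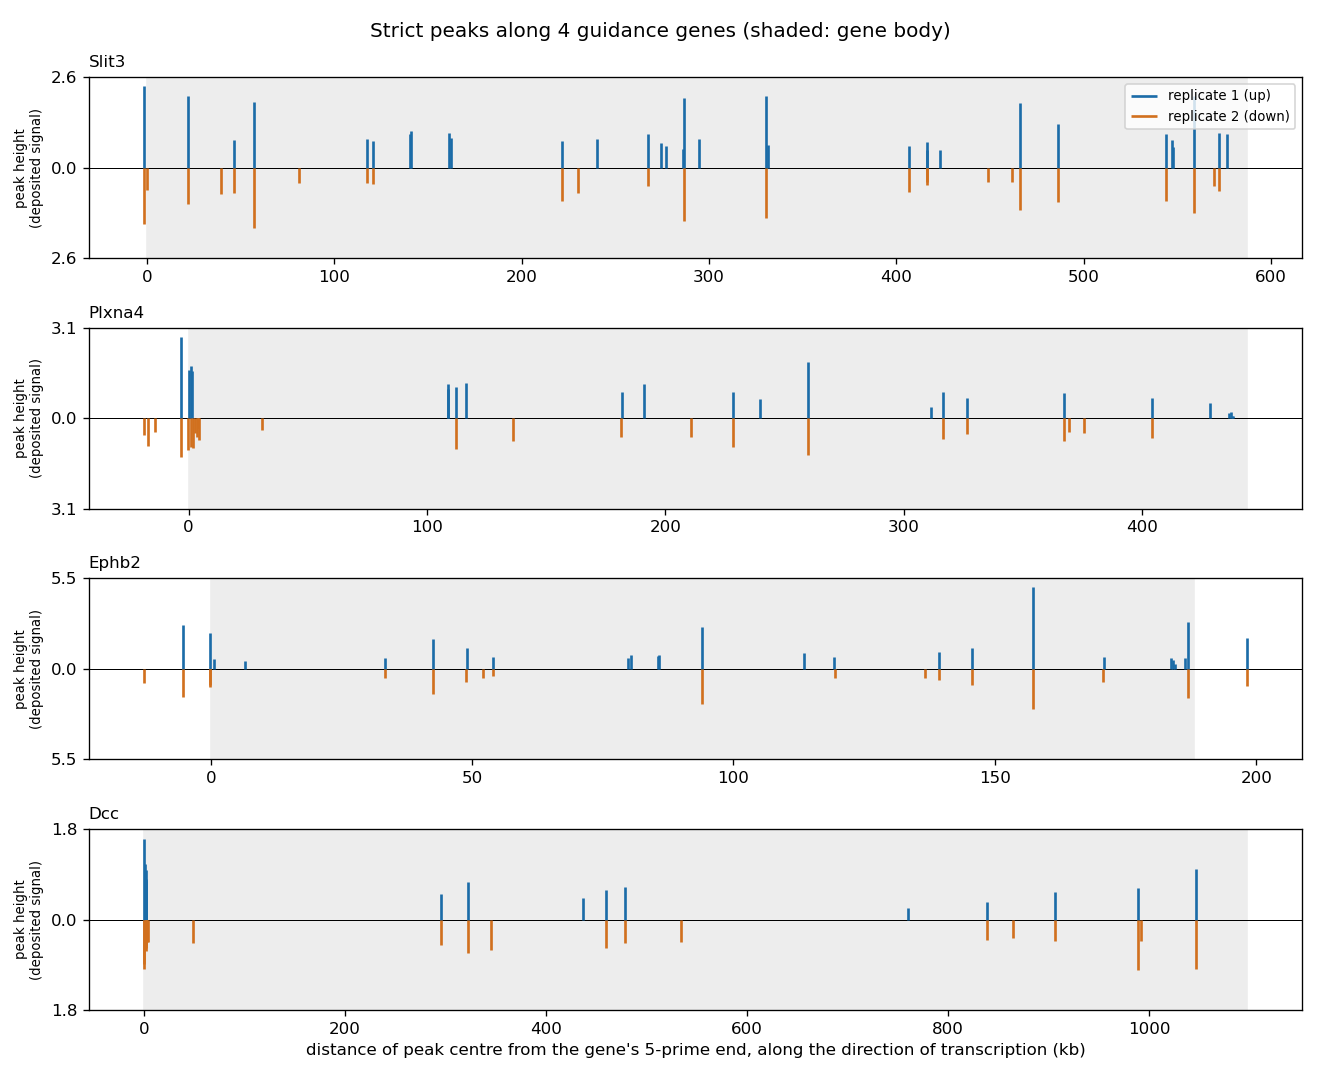
Strict peaks along Slit3, Plxna4, Ephb2 and Dcc, by distance of the peak centre from the 5′ end in the direction of transcription (kb), with heights (deposited signal) upwards for replicate 1 and downwards for replicate 2 and the gene body shaded. Slit3 peaks are spread over its 587 kb, the tallest of Ephb2 (5 and 2.42) lies 157 kb inside, and Dcc has few peaks for its 1097 kb.

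Distal peaks in these windows numbered 424 in replicate 1 and 351 in replicate 2, and 245 of replicate 1 overlapped one of replicate 2. Gene bodies held 75.5% and 79.2% of them, upstream flanks 15.3% and 12.5%, and downstream flanks 9.2% and 8.26%. Of the distal peaks, 57.8% in replicate 1 and 70.1% in replicate 2 were shared with the other library, against 63.9% and 77.3% of distal peaks of the genome. Footprints lay in 88% and 86.9% of them, against 87.8% and 84.7%. The shared distal peaks had a median height of 1.16 in replicate 1 and 0.891 in replicate 2.

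The 10 tallest shared distal peaks lay in the windows of 11 guidance genes, since that at Efna3 is also downstream of Efna4. The first, at 6.4 and 5.11, was 19.5 kb upstream of Efna2 but 6035 bp from a start of Cirbp, and the second, at 6 and 3.87, was 3.59 kb upstream of Sema3b but 3227 bp from Gnai2. The third, at 5.21 and 2.81, was 1362 bp upstream of Epha4 and 1170 bp from a start of the gene Gm28386. The next were an intronic peak of Ephb2 at 5 and 2.42, 157 kb into the gene, and a peak 15.7 kb upstream of Plxnd1 at 4.57 and 2.38. Those at Unc5b (3.68 and 2.89, downstream, 7726 bp from Slc29a3), Efna3 (4.36 and 2.35, intronic), Ntn3 (4.13 and 2.28, 2849 bp upstream and 190 bp from a start of BC028777), Nrp1 (3.35 and 2.64, exonic) and Sema4a (3.17 and 2.07, 6158 bp upstream) completed the list. Picked for their height, all 10 were taller than the median of guidance genes' tallest promoter peaks in both libraries (1.88 and 1.32). The median shared distal peak, at 1.16 and 0.891, was lower than that median, which takes only the tallest promoter peak of a gene. Over all promoter peaks of guidance genes, shared or not, the medians were 1.11 and 0.929, close to those of shared distal peaks.

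The sequences of 3 of these (Epha4, Ephb2 and Plxnd1), for which no other coding gene has a nearer start, and of an intronic peak of Robo1 687 kb into the gene (2.5 and 1.88) are shown because each held a footprinted match to the CTCF consensus. Capitals again mark bases in footprints of both libraries.
Epha4, chr1:77516341-77516560, minus strand: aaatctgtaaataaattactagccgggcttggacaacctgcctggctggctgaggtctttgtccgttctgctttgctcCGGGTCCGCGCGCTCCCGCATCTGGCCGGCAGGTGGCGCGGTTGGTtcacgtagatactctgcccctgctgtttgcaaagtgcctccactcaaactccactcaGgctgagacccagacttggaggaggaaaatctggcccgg
Ephb2, chr4:136678541-136678740, minus strand: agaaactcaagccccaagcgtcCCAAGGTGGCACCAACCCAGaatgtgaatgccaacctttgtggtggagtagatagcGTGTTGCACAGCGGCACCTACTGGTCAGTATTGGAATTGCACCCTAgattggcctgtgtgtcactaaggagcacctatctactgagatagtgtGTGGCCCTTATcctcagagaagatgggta
Plxnd1, chr6:116010621-116010840, minus strand: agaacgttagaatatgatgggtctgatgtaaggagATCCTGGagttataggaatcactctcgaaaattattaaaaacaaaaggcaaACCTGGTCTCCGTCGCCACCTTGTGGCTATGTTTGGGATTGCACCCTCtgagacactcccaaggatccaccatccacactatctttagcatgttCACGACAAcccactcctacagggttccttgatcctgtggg
Robo1, chr16:72995321-72995480, plus strand: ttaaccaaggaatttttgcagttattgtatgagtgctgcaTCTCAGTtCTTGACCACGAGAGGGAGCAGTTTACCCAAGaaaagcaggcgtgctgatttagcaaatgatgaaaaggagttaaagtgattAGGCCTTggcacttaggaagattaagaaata
Each of these 4 held 1 match to a 14-letter CTCF consensus with at most 2 mismatches, and in all 4 at least 7 of the 14 letters lay in capitals. CTCF is a zinc finger protein that binds chromatin loop anchors. That search was added after the sequences were seen, so the shares below are a description. A match was in 9 of the 10 tallest shared distal peaks, the exception being the peak upstream of Efna2, in 17 of the 25 tallest (68%), and in 80 of 245 (32.7%). Among all shared distal peaks of the genome it was in 34.7%, and in the tallest 10% of them in 65.8%. The share in the 25 tallest around guidance genes, which are about the top 10% of their 245, was thus near that of tall distal peaks in general. In the tallest promoter peaks it was in 16 of 56 for guidance genes (28.6%), Ephb3, Efnb2, Robo3, Sema4b and Sema5a among them, against 19.7% of 12882 coding genes. The strict CTCF consensus was in 33 of the 245 (13.5%), against 14.9%, TGANTCA in 14.3%, against 14.2%, and CAGATGG in 10.2%, against 12.5%.

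The libraries differed in where their extra peaks lay. Summed over genes under 50 kb, guidance genes had 254 peaks in replicate 1 and 169 in replicate 2, a ratio of 1.5, against 1.29 for all coding genes. From 50 to 200 kb the ratio was 1.36, against 1.27, and over 200 kb it was 1.01 (253 and 251 peaks), against 1.21. Plxnb2 (22 and 6 peaks) and Sema7a (13 and 4) had most of their surplus in replicate 1, while Robo1 and Dcc had more peaks in replicate 2. Base composition moved with this: in windows of guidance genes the central 200 bases of peaks found in replicate 1 only had a median GC content of 54% (262 peaks), those found in replicate 2 only 47.2% (120 peaks), and shared ones 55.5%. Genome-wide the medians were 51.5%, 45% and 52.5%. The part of base composition in the genes seen in 1 library only (Epha1, Efna2, Ntn1, Ntn3 and Sema4d, all in replicate 1) was not tested.

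Of 22 co-receptors and further cues of the same pathways, 20 (90.9%) were open in replicate 1 and 17 (77.3%) in replicate 2 and in both libraries, with median heights of 2.01 and 1.6. Of 50 cytoplasmic effectors, 48 (96%) were open in both, with medians of 3.04 and 2.04, beside 3.02 and 2.17 for all coding genes with a promoter peak. The tallest co-receptors and cues were Lrig2 (8.31 and 4.85), Rgmb (7 and 4.08), a membrane-anchored ligand of the netrin receptor Neo1, and Flrt3 (5.19 and 3.82), which binds Unc5 receptors. Draxin, a secreted partner of netrin receptors, and Flrt1 had no promoter peak in either library. The tallest effectors in replicate 1 were Gsk3b (10.4 and 6.38), a kinase of microtubule regulators, Nck1 (8.57 and 4.74), an adaptor that binds Dcc and Robos, and Cdk5 (8.15 and 5.96), the kinase that phosphorylates Dpysl2 downstream of Sema3a. Rhoa, the small GTPase (8.06 and 5.3), came next in replicate 1 and was above Nck1 in replicate 2. The peak of Cdk5 lay within 1000 bp of a start of Slc4a2 as well, and that of Rhoa within 1000 bp of a start of Tcta.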

How the data were processed

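DNase-seq libraries of 2 animals of 1 group were used, and no groups were compared. Per the labels, the assembly is mm10. Per the deposited descriptions, peaks, false discovery rates and footprints were each made from that library's own alignments, so peaks were called per library. The aligner, the callers, their versions and the read depth are stated by no source used here. The deposited peak lists give a height per peak, a signal whose scaling is not stated. The deposited list of false discovery rates, a q-value per base, holds only bases under 0.05. The deposited footprints carry the constant 0.01 in their p-value column, which ranks nothing. Read-depth-normalised signal tracks were not analysed here.

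From these, peaks were matched to every transcript start of 21938 GENCODE M21 protein-coding genes (within 1000 bp, at least 1 bp of overlap, the strict peak set), to gene bodies with 20000 bp on each side, and to the other library (at least 1 bp). The value for a gene is its tallest promoter peak. All 461364 peaks of the 4 peak lists lay within the chromosomes of the GRCm38 reference, and 2000 of 2000 promoter sequences of the RefSeq table equalled that reference. GC content, CpG ratio and motifs were taken from that table and from the central 200 bases of peaks, with motifs searched on both strands and matches of different motifs allowed to overlap. Counting and motif searches were tested on simulated data. Python 3.11.15, numpy 2.4.6, pandas 2.3.3 and matplotlib 3.10.9 were used. The genes, the lists and the motifs were chosen with earlier results of these data known. Genes were named in the text by family: up to 3 with the tallest promoter peaks by the lower of their ranks in the libraries, those open in 1 library or neither, the 8 with most peaks, the 5 densest, the 10 tallest shared distal peaks, and of each pathway list the 3 tallest and up to 4 closed. Others named (such as Epha4, Ephb1, Ephb4, Efna5, Efnb1, Dcc, Sema3b to Sema3e, Plxna3, Plxnb2 and Sema7a for their peak counts, and genes with internal starts) were chosen after their values were seen. Alternatives were the larger peak set, other windows and flanks, the 5′ end only, taller peaks only, stricter overlaps and each library alone.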

Additional observations from a re-analysis of the deposited data

How the results depend on the processing

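No paired analysis was possible because the 2 libraries form 1 group and nothing was compared between groups. Of the 69 guidance genes, 56 were open in both libraries as reported, and 59 with the larger peak set, 52 within 500 bp of a start, 61 within 2500 bp, 51 at the 5′ end only, 56 without peaks near another coding gene and 50 with the taller 50% of peaks. The same settings gave 64.3%, 57.1%, 62.1%, 53.8%, 48.1% and 52.5% of all coding genes, each a lower share than that of the 69 guidance genes. Each library alone gave 56 and 61. The median number of peaks around a guidance gene, 7.5 over both libraries, became 13 with the larger set, 4 without flanks, 12.5 with flanks of 50000 bp and 4 for distal peaks only, and was 7 to 8 with 1 library left out. The density of 4.21 per 100 kb became 7.71 with the larger set and 2.67 for distal peaks, and was 3.76 to 4.67 with 1 library left out. The median height of the tallest promoter peak, 1.6, was 1.32 to 1.88 with 1 library left out. Sharing of peaks between libraries, 69.7%, became 87% against the larger set of the other library. Promoter peaks with a footprint, 82.4%, became 80.7% with whole footprints inside the peak, and were 81.8% to 83.1% with 1 library left out. Other pathway genes open in both libraries numbered 65 as reported and 65 to 70 with 1 library left out. Distal peaks with the CTCF consensus, 13.5%, became 32.7% under the longer consensus with up to 2 mismatches, an alternative chosen after seeing the data. Larger sets, flanks and looser overlaps hold more peaks by construction. The depth of the libraries is not known, so a peak missing in 1 library is not shown to be absent there.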
